A study of Mus musculus with 12 samples.

Results

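Hippocampal RNA of presenilin double knockout mice (DKO) was compared with that of control mice (WT) in the libraries named Day, 3 of each genotype, which are 6 of the 12 libraries of the series. The design text gives 9 a.m. as the earlier of the hours of killing, and Day was read as that hour. The genotype label is WT for the controls, and the series title calls the others conditional presenilin knockout mice. The sources used here do not give the driver of the deletion, nor the strain, the sex and the age of the mice. All mice were killed under sodium pentobarbital. The question was which genes differed between genotypes by day, and how that difference related to the content of choroid plexus and blood vessels in the dissected tissue. Of 21878 genes in the tables, 12689 had an FPKM (a fragment count divided by transcript length and library size) of at least 0.5 in at least 3 of the 12 libraries, and these were tested.

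Presenilins are the catalytic subunits of gamma-secretase, the protease complex that cuts the amyloid precursor protein, the Notch receptors and many other membrane proteins inside the membrane. Loss of presenilins in excitatory neurons of the forebrain is known for memory loss, gliosis and later loss of neurons. The choroid plexus is a secretory epithelium that hangs in the brain ventricles, next to the hippocampus, and makes cerebrospinal fluid and transthyretin. The leptomeninges are the thin fibroblast layers on the brain surface, and arteries that run in them carry a coat of smooth muscle. How much of each stays on a dissected hippocampus can vary from animal to animal.

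The FPKM values of the day libraries summed to between 151059 and 167292, and the number of reads is unknown. Across the genes tested, the 6 pairs of day libraries of the same genotype had correlations of log2(FPKM + 1) (Pearson's r) from 0.9898 to 0.9934, and the 9 pairs of different genotype from 0.9833 to 0.9917. The label gives brain and the design text hippocampus as tissue. The 14 genes of the hippocampal subfield list were all tested, with a mean log2(FPKM + 1) of 3.20 to 3.45 in the day libraries, and 11 of the 15 genes of neighbouring brain regions were tested, at 1.12 to 1.45. None of the 4 tested Y-linked genes was called by day. In Night WT replicate 1 these genes were at or near 0 (Ddx3y 0.0225 FPKM, against 8.39 and 8.47 in the other 2 Night WT libraries and the lowest day value of 6.83 in Day WT replicate 3), so that library does not match the others in sex. It enters the day test through the filter on FPKM and the shared estimate of spread, not through the day means. Without it 104 genes were called. The fits on choroid plexus or vessel content given below used all 12 libraries, so there it also affects the estimates.

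Psen2, which encodes a presenilin, was lower in DKO. Its values were 1.67, 1.47 and 2.87 FPKM in WT and 0.520, 0.378 and 0.275 FPKM in DKO. All 3 DKO libraries lay below all WT libraries. The means were 2 ± 0.756 FPKM in WT and 0.391 ± 0.123 FPKM in DKO (SD, n = 3), a difference of -1.08 in log2(FPKM + 1) (SE 0.142, limma, adjusted p = 0.00982). Psen2 has gene ID 19165 and lies on chromosome 1 from 180227004 to 180263467 (GRCm38.p6). A gene-level FPKM does not show which exons the reads cover. Ncstn, the substrate-binding gamma-secretase subunit nicastrin, differed by -0.14 and was not called. None of the 15 tested Notch pathway genes was called. The Notch target gene Hes1 had 2.86, 2.58 and 3.06 FPKM in WT and 3.41, 4.80 and 3.79 FPKM in DKO (log2 difference 0.38, limma, adjusted p = 0.0837), Notch1 differed by -0.23 and the Notch target gene Hey2 by -0.30.

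By day 150 of the 12689 genes, 1.18%, were called in limma, with an adjusted p (Benjamini-Hochberg) under 0.05. Of these, 101 genes (0.796%) were higher and 49 (0.386%) lower in DKO. Among the 150, the log2 differences ran from -1.25 to 1.20, and only 7 were at least 1 in size. The median rise was 0.39 and the median fall -0.52, beside a median of 0.04 over all genes tested. In all 150 the DKO and WT libraries did not overlap. Over all genes tested, the 3 DKO libraries were above the 3 WT libraries in 1815 genes (14.3%) and below them in 668 (5.26%). The split into higher and lower was 62 and 65 after median-of-ratios scaling, 69 and 72 after the trend on transcript length was removed, and 51 and 45 after quantile normalization. By day 2161 genes had an unadjusted p under 0.05.

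**Figure D1:**
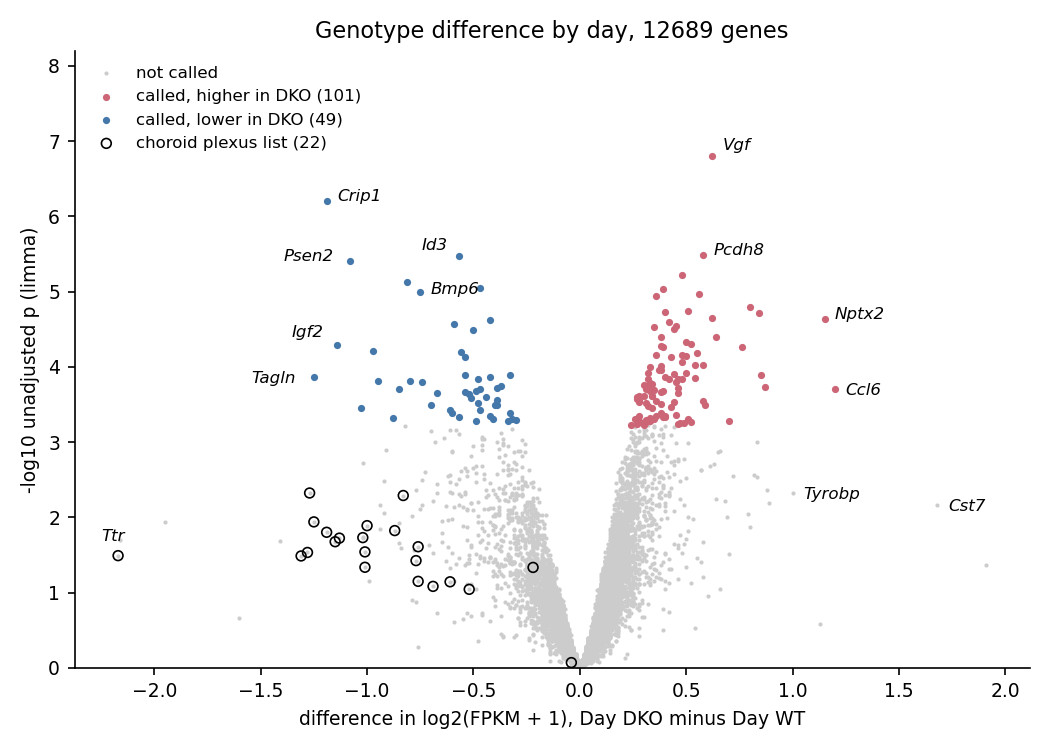
Difference in log2(FPKM + 1) between Day DKO and Day WT (x axis) against the -log10 unadjusted limma p (y axis) for the 12689 genes tested. Red and blue points are the 101 genes called higher and the 49 called lower. Black rings are the 22 choroid plexus genes, which all lie left of 0, from Ttr at -2.17 to -0.04, and all below the called genes.

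All but 9 of the 150 lost their call without at least 1 library. Without Day WT replicate 2 there were 13 called genes, without Day DKO replicate 3 there were 19, without Day DKO replicate 2 there were 23, without Day WT replicate 1 there were 60 and without Night WT replicate 3 there were 85. Without Day DKO replicate 1 the count was 205. The 9 genes called without each of the 12 libraries in turn were Vgf, Crip1, Psen2, Id3, Ifitm3, Bmp6, Pcdh8, Rin1 and Snapc1. Pcdh8, an activity-regulated protocadherin, had 11.9, 12.1 and 13.5 FPKM in WT and 17.8, 18.3 and 21.6 FPKM in DKO, a log2 rise of 0.58 (SE 0.075, limma, adjusted p = 0.00982). Rin1, a Ras effector of forebrain neurons, rose by 0.39 (SE 0.055, limma, adjusted p = 0.0123). Snapc1, a subunit of the complex that starts transcription of small nuclear RNA genes, fell by 0.47 on the log2 scale (SE 0.066, limma, adjusted p = 0.0123).

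**Figure D2:**
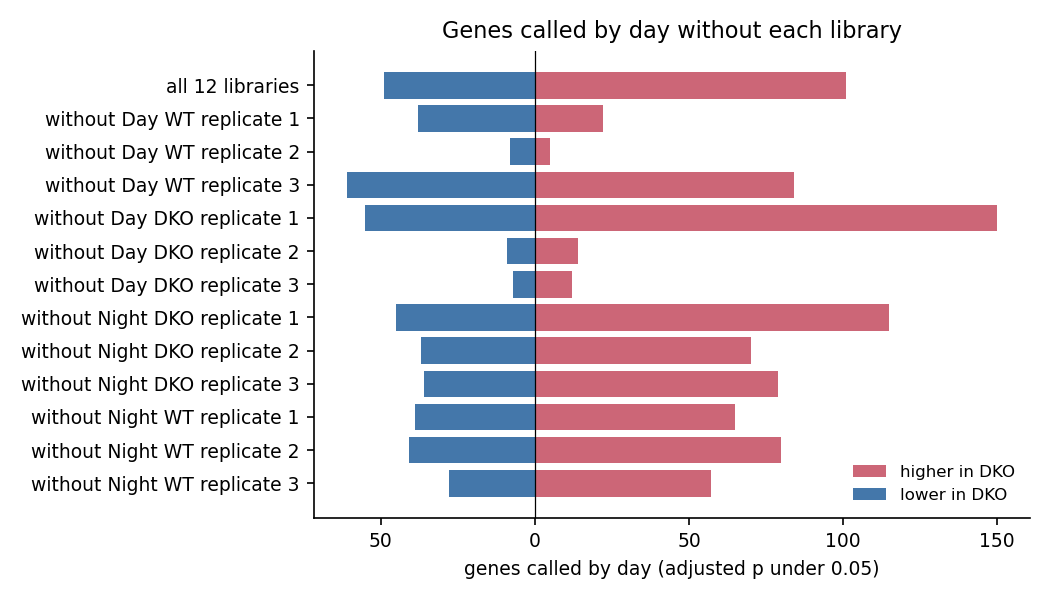
Number of genes called by day with all 12 libraries and without each library in turn, with genes higher in DKO to the right and genes lower in DKO to the left. The count is lowest without Day WT replicate 2 (5 higher and 8 lower) and highest without Day DKO replicate 1 (150 higher and 55 lower).

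The choroid plexus content of the day libraries varied widely and overlapped between genotypes. The choroid plexus level of a library is here the mean log2(FPKM + 1) of 22 epithelial genes. It was 3.04, 3.11 and 2.13 in WT and 1.93, 0.90 and 2.60 in DKO, so that Day DKO replicate 3 lay above Day WT replicate 3. The group values were 2.76 ± 0.55 in Day WT and 1.81 ± 0.86 in Day DKO (SD, n = 3), beside 2.88 ± 0.46 in Night WT and 2.84 ± 0.24 in Night DKO. Summed, the 22 genes made up 0.723% to 1.74% of all FPKM in Day WT and 0.0436% to 1.09% in Day DKO. None of the 22 was at 0 in a day library, and the lowest value of any was 0.0479 FPKM.

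Ttr, which encodes transthyretin, the main secreted protein of the choroid plexus, had 2445, 2655 and 1069 FPKM in Day WT. In Day DKO it had 786, 55.3 and 1724 FPKM. Day DKO replicate 2 was far below every other library, and Day DKO replicate 3 lay between the WT libraries. The difference was -2.17 in log2(FPKM + 1) (SE 0.903, limma, adjusted p = 0.252), larger in size than that of any called gene, and it was not called. Each of the 22 genes had a negative difference, with a median of -1.0, and 17 had an unadjusted p under 0.05, but none was called. The log2 differences were -1.27 for Wfdc2, a secreted protease inhibitor homologue, -1.25 for Sostdc1, a secreted BMP and Wnt antagonist, and -1.0 for the coagulation factor gene F5. Without each day library in turn the median of the list lay between -1.37 and -0.57 and no member was called. At night the median was -0.04.

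**Figure D3:**
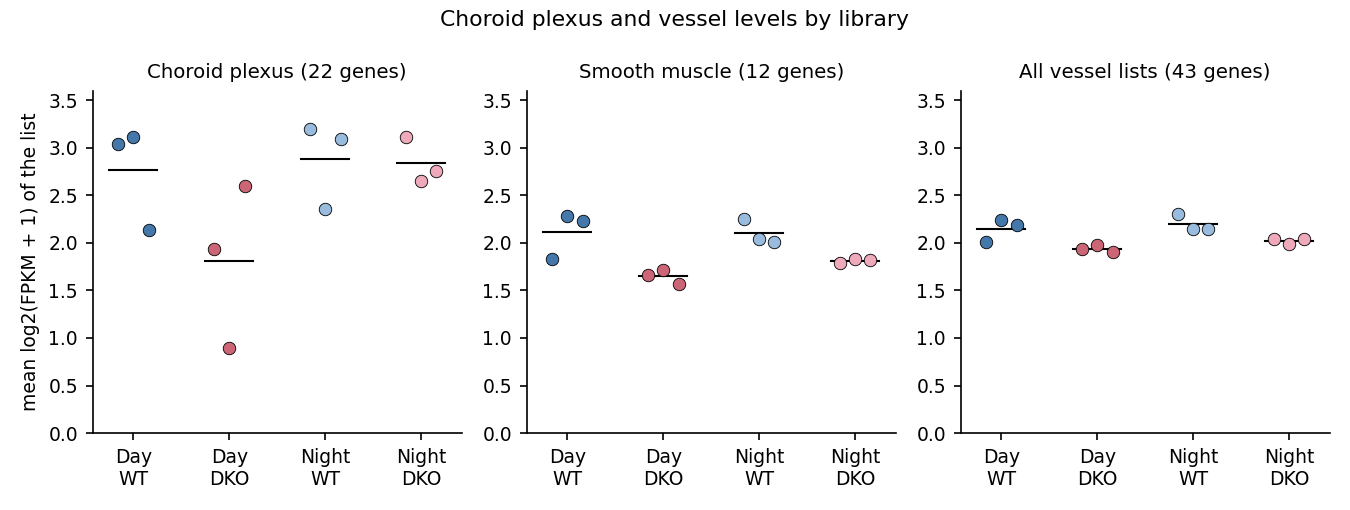
Mean log2(FPKM + 1) of the choroid plexus list, the smooth muscle list and the 3 vessel lists together (y axes, from 0) in each library, by group, with a line at the group mean. Choroid plexus levels overlap between Day WT and Day DKO, whereas the smooth muscle levels do not, with a lowest Day WT value of 1.83 and a highest Day DKO value of 1.71.

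To see which genes moved with choroid plexus content apart from genotype, the slope of each gene on the choroid plexus level was fitted within the 4 groups. Of 12667 genes outside the list, 69 (0.545%) had a called slope, 66 (0.521%) positive and 3 (0.0237%) negative. Leaving out Day WT replicate 3 gave 32 called slopes, leaving out Night WT replicate 2 gave 34, and Ttr alone as the level gave 5. The smallest p-values belonged to Ace, the angiotensin-converting enzyme, with a slope of 0.87 log2 units per unit of choroid plexus level (SE 0.048, limma, adjusted p = 6.64e-07), and Enpp2, autotaxin, with 1.43 (SE 0.080, the same adjusted p). Sulf1, a heparan sulfate sulfatase, had 0.77, C1qtnf5 0.88 and Lbp, the lipopolysaccharide-binding protein, 0.78. Enpp2 had 165, 180 and 79.9 FPKM in Day WT and 66.7, 16.8 and 106 FPKM in Day DKO, the order of libraries seen for Ttr, and was not called by day. The negative slopes were those of Il34 (-0.25), Junb (-0.43) and Tmem251 (-0.28).

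Of the 69 genes that followed choroid plexus content 1 was called by day, Slc13a4, beside 1.18% of all genes tested. The choroid plexus level varied widely within both day groups. Genes that follow it spread there too and are hard to call by day, as with Enpp2 (SE 0.536). The small overlap therefore does not show that the sets are distinct. Slc13a4, a sulfate transporter of meninges and choroid plexus, had 8.08, 9.57 and 6.11 FPKM in Day WT and 4.26, 2.50 and 3.95 FPKM in Day DKO, with no overlap. Its log2 difference was -0.97 (SE 0.166, limma, adjusted p = 0.0230), its slope on the choroid plexus level 0.38 (SE 0.072, limma, adjusted p = 0.0312), and its difference with the level as a covariate -0.61 (limma, adjusted p = 0.0868).

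When the choroid plexus level was added as a covariate, the medians of the called genes moved little and all but 4 of the calls were lost. The 101 genes called higher had a median difference of 0.39 without the covariate and 0.38 with it, while the median standard error went from 0.074 to 0.089. The 49 genes called lower had a median of -0.52 without it and -0.49 with it, with median standard errors of 0.098 and 0.115. All 150 kept their sign. The difference of 6 of the 150 shrank by over 1.5 times, among them Pcolce (-0.88 to -0.54), Slc13a4 and Igf2 (-1.14 to -0.74), and none grew by as much. In this limma fit 4 genes remained called: Vgf (0.67, adjusted p = 0.0123), Crip1 (-0.96, adjusted p = 0.0264), Phospho1, a phosphatase, (0.64, adjusted p = 0.0331) and Psen2 (-1.20, adjusted p = 0.0371). The difference of Ttr in this fit was -0.01, and the median of the choroid plexus list, which defines the covariate, was -0.01.

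Smooth muscle genes were among those called lower by day. Of the 16 listed genes 12 were tested, and 6 of them (50%) were called lower, beside 0.386% of all genes tested, and none higher. The median of the 12 was -0.39, and in 9 all DKO libraries lay below all WT libraries, beside 5.26% of all genes tested. Tagln, an actin-binding protein of contractile cells, had 3.51, 8.10 and 8.69 FPKM in WT and 2.19, 2.43 and 1.73 FPKM in DKO. Day WT replicate 1 was the lowest WT library and still above each DKO library. The difference was -1.25 (SE 0.232, limma, adjusted p = 0.0296).

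Acta2, smooth muscle actin, had 2.78, 6.49 and 6.76 FPKM in WT and 2.08, 2.33 and 1.55 FPKM in DKO, a difference of -1.03 (SE 0.213, limma, adjusted p = 0.0402). Myl9, a regulatory myosin light chain, had 5.32, 10.01 and 8.77 FPKM in WT and 4.22, 3.76 and 2.76 FPKM in DKO, a difference of -0.95 (SE 0.181, limma, adjusted p = 0.0302). Both show the low value of Day WT replicate 1 seen for Tagln. Myh11, the smooth muscle myosin heavy chain, fell by 0.85 on the log2 scale, the calcium pump regulator Pln by 0.47 and the tropomyosin gene Tpm2 by 0.42. The other tested members were not called, and 2 of them, Tpm1 and Csrp1, which many other cell types also express, had positive differences of 0.17 and 0.13. In bulk tissue, fewer cells of a type and less RNA per cell cannot be told apart.

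The level of the smooth muscle list was 1.83, 2.28 and 2.23 in Day WT and 1.66, 1.71 and 1.57 in Day DKO. It did not follow the choroid plexus level library by library: Day WT replicate 1 had a high choroid plexus level of 3.04 and the lowest WT smooth muscle level. Day DKO replicate 3, with the highest choroid plexus level of the DKO libraries, had the lowest smooth muscle level of the 6. With the choroid plexus covariate the list median was -0.36 and the difference of Tagln -1.47. The 6 calls rested on several libraries, since no smooth muscle gene was called without Day WT replicate 2, Day WT replicate 3, Day DKO replicate 2 or Day DKO replicate 3, at list medians of -0.38 to -0.32, and 7 were called without Day WT replicate 1. At night the list median was -0.23.

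Myl9 is shown because it was the 1 of 10 smooth muscle genes with a RefSeq promoter that held a CArG box, the binding motif of serum response factor, in the 250 bases before the transcript start. Both strands are searched at once, since the motif is its own reverse complement in kind. Only exact matches to the motif were counted, so variant forms were not. All genes tested held it in 145 of 10139 promoters (1.43%), and a match describes letters, not binding. Genes called higher held it in 2 of 80 promoters, genes called lower in 3 of 38 and activity-induced genes in 2 of 23. The stretch is chr2:156775264-156775363 on the plus strand of GRCm38.p6, from RefSeq, with the motif in capitals.

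Myl9: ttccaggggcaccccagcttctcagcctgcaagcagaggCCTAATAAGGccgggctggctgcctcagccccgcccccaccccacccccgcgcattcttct

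Endothelial genes had mostly negative differences and no call in that direction. Of 21 genes 17 were negative, as were 4714 of all 12689 genes tested, with a median of -0.17. At an unadjusted p under 0.05, 10 were lower, beside 650 of all genes tested. In 8 all DKO libraries lay below all WT libraries, beside 5.26% of all genes tested. The 1 call was of a higher gene, beside 0.796% called higher of all genes tested. The call was lost without 4 of the 6 day libraries (Day WT replicates 1 and 2, Day DKO replicates 1 and 2). That gene was Mfsd2a, the lipid transporter of the blood-brain barrier, at 3.71, 3.80 and 4.47 FPKM in WT and 6.37, 6.97 and 5.04 FPKM in DKO (log2 difference 0.51, SE 0.110, limma, adjusted p = 0.0475). Slco1a4, an organic anion transporter of the same barrier, differed by -0.30 and was not called. Of 10 pericyte genes none was called, with a median of -0.11, and the difference of Pdgfrb, the receptor that marks mural cells, was -0.27. All 5 tested blood genes had negative differences, with a median of -0.39. Of these Hbb-bt, a beta globin gene, was called lower at -0.57 (limma, adjusted p = 0.0468), beside 0.386% of all genes tested. When each day library was left out, that call was kept only without Day WT replicate 3. Hba-a1, an alpha globin gene, differed by -0.48.

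Genes of the leptomeninges were also among them. All 21 listed fibroblast genes had differences below or at 0, with a median of -0.59, and 6 (28.6%) were called lower, beside 0.386% of all genes tested. In 11 the DKO libraries lay entirely below the WT libraries, beside 5.26% of all genes tested. Igf2, a growth factor that the meninges and choroid plexus secrete, had 15.96, 24.2 and 14.01 FPKM in WT and 8.61, 5.29 and 9.02 FPKM in DKO, a difference of -1.14 (SE 0.191, limma, adjusted p = 0.0209). Pcolce, an enhancer of procollagen processing, fell by 0.88 on the log2 scale, and Bgn, the matrix proteoglycan biglycan, by 0.50. Slc13a4, described above, Bmp6 and Bmp7 complete the 6.

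The leptomeningeal list had a level of 2.13, 2.55 and 2.28 in Day WT and of 1.88, 1.73 and 1.57 in Day DKO, without overlap. Members differed in how they followed the choroid plexus level. Igfbp2, an insulin-like growth factor binding protein, had a called slope of 0.51 (SE 0.091, limma, adjusted p = 0.0192), and with the covariate its day difference went from -0.91 to -0.42. Igf2 had a slope of 0.42 that was not called (limma, adjusted p = 0.0680), and its difference went from -1.14 to -0.74. The list median with the covariate was -0.61. Between 1 and 7 members were called when each day library was left out, with 1 called when Day WT replicate 2 was left out and 1 when Day DKO replicate 2 was. At night the median was -0.31.

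Bone morphogenetic protein (BMP) genes were among the lower genes. BMPs are secreted ligands that act through SMAD proteins, and the Id genes are their direct targets. Of 20 tested genes of BMP and TGF-beta signalling 4 (20.0%) were called lower, beside 0.386% of all genes tested, and none higher, with a median of -0.17. Without each day library in turn 2 or 3 were called lower, with 2 without Day WT replicate 1, Day WT replicate 2, Day DKO replicate 2 or Day DKO replicate 3. The ligand Bmp6 had 3.43, 4.88 and 3.86 FPKM in WT and 1.77, 1.92 and 2.32 FPKM in DKO, a difference of -0.75 (SE 0.107, limma, adjusted p = 0.0123). The ligand Bmp7 differed by -0.48 (SE 0.098, limma, adjusted p = 0.0373). Both ligands also stand in the leptomeningeal list.

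Of the targets, Id3 had 28.0, 33.9 and 28.0 FPKM in WT and 19.0, 20.5 and 19.9 FPKM in DKO, a difference of -0.57 (SE 0.073, limma, adjusted p = 0.00982). The DKO libraries lay close together and well below the lowest WT library. The other Id genes tested were not called, with differences of -0.33 for Id1, -0.24 for Id4 and 0.21 for Id2. Smad6, an inhibitory SMAD, fell by 0.44 on the log2 scale (limma, adjusted p = 0.0341). Smad7, the other inhibitory SMAD, differed by 0.28 and was not called (limma, adjusted p = 0.0967). With the choroid plexus covariate the differences were -0.63 for Bmp6 and -0.55 for Id3, neither called.

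Matrix genes were divided. Of 18 tested genes of basement membrane and matrix 3 were called lower and 1 higher, beside 0.386% and 0.796% of all genes tested, with a median of -0.25. No matrix gene was called when Day WT replicate 2, Day DKO replicate 2 or Day DKO replicate 3 was left out, 2 were called lower without Day WT replicate 1 or Day DKO replicate 1, and no gene was called higher without each of the 6 in turn. Mgp, an inhibitor of calcification in vessel walls, had 29.4, 40.6 and 37.4 FPKM in WT and 20.3, 21.6 and 18.2 FPKM in DKO (log2 difference -0.80, SE 0.151, limma, adjusted p = 0.0302). Thbs1, thrombospondin 1, fell by 0.59 and Hspg2, the basement membrane proteoglycan perlecan, by 0.52 on the log2 scale. Sparc, a collagen-binding glycoprotein that brain endothelium and astrocytes also make, rose by 0.28 (SE 0.060, limma, adjusted p = 0.0468). Nid2, a basement membrane nidogen, had a called choroid plexus slope of 0.34 (limma, adjusted p = 0.0272) and a day difference of -0.56 that was not called.

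Outside these lists, the largest falls included Crip1 and Ifitm3. Crip1, a small LIM-domain protein, had 20.6, 24.3 and 17.2 FPKM in WT and 8.91, 6.66 and 10.2 FPKM in DKO. The means were 20.7 ± 3.51 FPKM in WT and 8.57 ± 1.77 FPKM in DKO (SD, n = 3), a difference of -1.19 (SE 0.131, limma, adjusted p = 0.00401). Ifitm3, an interferon-induced membrane protein that restricts virus entry, had 10.97, 13.9 and 9.14 FPKM in WT and 5.83, 6.10 and 5.97 FPKM in DKO, a difference of -0.81 (SE 0.112, limma, adjusted p = 0.0123). The 3 DKO libraries of Ifitm3 lay closer together than the WT libraries. At night the differences were -0.28 for Crip1 and -0.08 for Ifitm3.

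A vessel level, the mean over the 43 tested genes of smooth muscle, pericytes and endothelium, was 2.01, 2.24 and 2.19 in Day WT and 1.93, 1.98 and 1.90 in Day DKO. These groups did not overlap, so genotype and vessel level can be separated by day only through their spread within groups. No gene outside the lists had a called slope on this level (0.0%, limma, 0 of 12646), and 509 had an unadjusted p under 0.05. With it as a covariate no gene was called by day, at a smallest adjusted p of 0.104, and 1171 genes had an unadjusted p under 0.05. The median difference of the 101 higher genes was then 0.43 with a median standard error of 0.114, and that of the 49 lower genes -0.40 with 0.139. The smooth muscle list, part of the covariate, had a median of -0.14, and the leptomeningeal list, which is not part of it, -0.19. With both covariates no gene was called, the smallest adjusted p was 0.0908, 728 genes had an unadjusted p under 0.05, and the medians were 0.39 and -0.34.

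**Figure D4:**
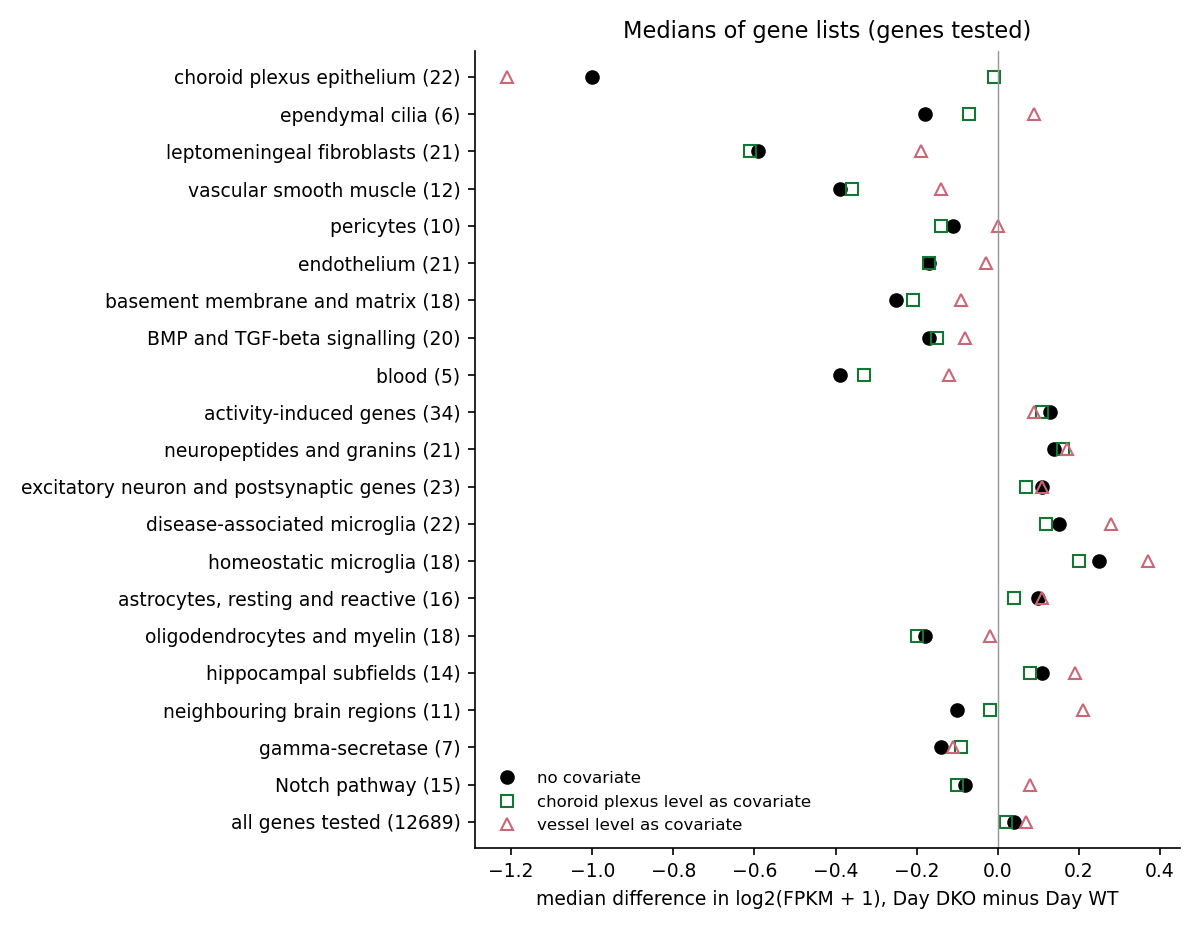
Median difference in log2(FPKM + 1) between Day DKO and Day WT (x axis) of the tested genes of each list (number in brackets), without a covariate, with the choroid plexus level and with the vessel level. The choroid plexus list moves from -1.0 to -0.01 with its own level as covariate, while the leptomeningeal list stays at -0.59 and -0.61 and comes to -0.19 with the vessel level.

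Activity-induced genes were among those called higher. Of 34 tested activity-induced genes 8 (23.5%) were called higher, beside 0.796% of all genes tested, and none lower, with a median of 0.13. In 15 all DKO libraries lay above all WT libraries, beside 14.3% of all genes tested. Vgf, a secreted neuropeptide precursor, had 21.5, 23.4 and 21.9 FPKM in WT and 33.3, 33.9 and 37.5 FPKM in DKO. The means were 22.3 ± 1.01 FPKM in WT and 34.9 ± 2.3 FPKM in DKO (SD, n = 3), a difference of 0.62 (SE 0.061, limma, adjusted p = 0.00203), the smallest p of all genes.

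Nptx2, a secreted pentraxin that clusters AMPA receptors, had 6.67, 5.69 and 5.06 FPKM in WT and 13.4, 12.5 and 16.3 FPKM in DKO. The lowest DKO library was far above the highest WT library, and the difference was 1.15 (SE 0.178, limma, adjusted p = 0.0159). Dusp5, a nuclear ERK phosphatase, had 3.06, 2.52 and 3.68 FPKM in WT and 6.80, 5.78 and 5.74 FPKM in DKO, a difference of 0.80 (SE 0.120, limma, adjusted p = 0.0153). Bdnf, the neurotrophin, had 3.31, 3.37 and 4.01 FPKM in WT and 4.89, 4.87 and 5.11 FPKM in DKO, a difference of 0.39 (SE 0.083, limma, adjusted p = 0.0469). Ptgs2, inducible cyclooxygenase, rose by 0.58, Homer1, a postsynaptic scaffold, by 0.38 and Rgs2, a regulator of G-protein signalling, by 0.27.

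Other rapid response genes of the same list were not called. The log2 differences were 0.40 for Fosb (-0.12 with both covariates), -0.28 for Fos, -0.25 for Nr4a1 and -0.53 for the phosphatase gene Dusp1. Those 4 were chosen after their values were seen, and 3 of them are falls, unlike most of the list. Over the 34 tested members 24 differences were positive and 10 negative, beside 7975 positive of all 12689 genes tested. At an unadjusted limma p under 0.05, 15 members were higher and 2 lower. The activity list had between 1 and 8 called members when each day library was left out, with 1 called when Day WT replicate 2 was left out and 2 when Day DKO replicate 3 was. At night its median was 0.02.

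Of 21 neuropeptide and granin genes 3 were called higher (0.796% of all genes tested were), with a median of 0.14, and Vgf and Scg2 stand in both lists. Only 1 was called without Day WT replicate 1, Day WT replicate 2, Day DKO replicate 2 or Day DKO replicate 3. Chgb, chromogranin B, had 92.2, 94.3 and 92.6 FPKM in WT and 114, 131 and 147 FPKM in DKO, a difference of 0.48 (SE 0.085, limma, adjusted p = 0.0257). Scg2, secretogranin II, had 27.5, 30.9 and 33.1 FPKM in WT and 38.1, 46.8 and 42.4 FPKM in DKO, a difference of 0.46 (SE 0.089, limma, adjusted p = 0.0319). Both proteins are cargo of dense-core vesicles. The peptide hormone gene Vip had 3.90, 4.19 and 4.61 FPKM in WT and 6.67, 7.24 and 7.38 FPKM in DKO, and its difference of 0.63 was not called (limma, adjusted p = 0.0853).

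Scg2 and Chgb each held the palindromic cAMP response element TGACGTCA in the 250 bases before the transcript start. It was present in 314 of 10139 promoters of genes tested (3.10%), in 3 of 80 of the higher genes (3.75%) and in 4 of 23 of the activity list. Shown are the 200 bases before the start from RefSeq (GRCm38.p6), 5′ to 3′ on the strand of the gene, with the element in capitals: Scg2 at chr1:79440027-79440226, minus strand, and Chgb at chr2:132781442-132781641, plus strand. The element ends 60 bases before the start in Scg2 and 64 in Chgb.

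Scg2: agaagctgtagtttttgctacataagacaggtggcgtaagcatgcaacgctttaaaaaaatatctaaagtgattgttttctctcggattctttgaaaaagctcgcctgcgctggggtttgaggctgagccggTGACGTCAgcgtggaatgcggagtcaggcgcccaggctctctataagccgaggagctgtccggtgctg

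Chgb: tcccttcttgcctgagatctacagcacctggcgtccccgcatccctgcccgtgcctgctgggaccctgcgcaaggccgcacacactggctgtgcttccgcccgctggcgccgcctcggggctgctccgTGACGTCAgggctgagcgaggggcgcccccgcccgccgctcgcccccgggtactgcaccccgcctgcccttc

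A few further genes of neurons were called higher. Neurod2, a transcription factor of excitatory neurons, had 20.4, 20.7 and 21.0 FPKM in WT and 26.4, 32.5 and 31.5 FPKM in DKO (log2 difference 0.51, SE 0.078, limma, adjusted p = 0.0153). With Homer1 it was 1 of 2 called members among 23 excitatory and postsynaptic genes, beside 0.796% called higher of all genes tested. The median of the 23 was 0.11. None of them was called without Day WT replicate 2 or Day DKO replicate 3, and 1 without Day WT replicate 1 or Day DKO replicate 2. The difference of Dlg4, the scaffold PSD-95, was 0.22 and not called. Outside the lists, Klk8, the secreted protease neuropsin, rose by 0.76 (limma, adjusted p = 0.0209) and Trnp1, a nuclear protein of neural progenitors and neurons, by 0.62 (limma, adjusted p = 0.0159). Thrsp, a regulator of fatty acid synthesis, had 10.4, 10.1 and 12.99 FPKM in WT and 15.9, 19.9 and 17.9 FPKM in DKO, a rise of 0.64 (limma, adjusted p = 0.0189). No gene of the 14 hippocampal subfield markers was called, and the calcium-binding protein gene Calb1, high in dentate granule cells, differed by 0.35 (limma, adjusted p = 0.0639).

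Microglial genes had mostly positive differences, with few calls. Of 18 homeostatic microglia genes 17 had positive differences, as had 7975 of all 12689 genes tested, with a median of 0.25. In 14 all DKO libraries lay above all WT libraries, beside 14.3% of all genes tested. Only 2 were called, both higher and among them Blnk, beside 0.796% called higher of all genes tested. In this list 1 was called without Day DKO replicate 1 and none without any other day library. Blnk, an adaptor of immune receptor signalling, had 0.587, 0.960 and 0.603 FPKM in WT and 2.21, 1.70 and 2.34 FPKM in DKO (log2 difference 0.85, SE 0.157, limma, adjusted p = 0.0296). Olfml3, a secreted microglial glycoprotein, differed by 0.57 and was not called.

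Of 22 disease-associated microglia genes 1 was called higher, beside 0.796% of all genes tested. It was the chemokine gene Ccl6, with 0.240, 0.726 and 0.287 FPKM in WT and 1.95, 2.68 and 2.11 FPKM in DKO (log2 difference 1.20, SE 0.234, limma, adjusted p = 0.0319). When each day library was left out, that call was kept only without Day DKO replicate 1. The median of the 22 genes was 0.15, with 16 positive differences and 6 negative, the lowest at -0.63. The cystatin gene Cst7 was listed at 0.0543, 0 and 0 FPKM in WT and at 2.59, 1.92 and 2.32 FPKM in DKO, and was not called (limma, adjusted p = 0.137). Tyrobp, the adaptor of the receptor TREM2, had 19.2, 20.7 and 17.1 FPKM in WT and 37.8, 37.3 and 41.6 FPKM in DKO. The libraries were far apart by genotype, yet the difference of 1.00 was not called (SE 0.293, limma, adjusted p = 0.122). The limma fit shares 1 spread per gene over the 4 groups. In Night DKO Tyrobp had 19.8, 56.6 and 60.0 FPKM, a mean of 45.5 ± 22.3 FPKM (SD, n = 3). Cst7 had 0.0274, 6.37 and 5.69 FPKM there, so replicate 1 was the lowest for both genes. Each was called in 1 of the 12 fits that left out a library, and in none of the 6 that left out a day library.

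Among 16 tested astrocyte genes 2 were called higher, beside 0.796% of all genes tested. The median of the 16 was 0.10, with 12 positive differences and 4 negative. At an unadjusted limma p under 0.05, 7 were higher and 2 lower. The difference of Vim was -0.33 and not called. In this list 1 was called without Day WT replicate 3. None was called without Day WT replicate 1, Day WT replicate 2, Day DKO replicate 2 or Day DKO replicate 3. Serpina3n, a secreted protease inhibitor of reactive astrocytes, had 5.71, 5.38 and 7.97 FPKM in WT and 9.05, 11.1 and 12.5 FPKM in DKO (log2 difference 0.70, limma, adjusted p = 0.0479). Fabp7, a fatty acid binding protein of astrocytes and neural stem cells, rose by 0.49 (limma, adjusted p = 0.0488). Gfap, the astrocyte intermediate filament, had 27.4, 30.4 and 33.2 FPKM in WT and 49.6, 65.8 and 49.6 FPKM in DKO and was not called (log2 difference 0.83, limma, adjusted p = 0.0984). In Night DKO it had 34.4, 63.3 and 79.2 FPKM, lowest in replicate 1. None of 18 oligodendrocyte and myelin genes was called, with a median of -0.18. Aspa, the aspartoacylase of oligodendrocytes, differed by -0.45. None of 6 tested ependymal genes was called, and the difference of Foxj1, the master regulator of motile cilia, was -0.50, and 0.03 with both covariates. None of the 11 tested genes of neighbouring brain regions was called.

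The series title names long noncoding RNAs. The tables held 114 genes with that RefSeq biotype, of which 14 were tested and 1 was called by day, beside 1.18% of all genes tested. LOC108167886 had 0.3004, 0.338 and 0.314 FPKM in WT and 0.665, 0.926 and 0.809 FPKM in DKO, a difference of 0.45 (SE 0.071, limma, adjusted p = 0.0161).

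**Figure D5:**
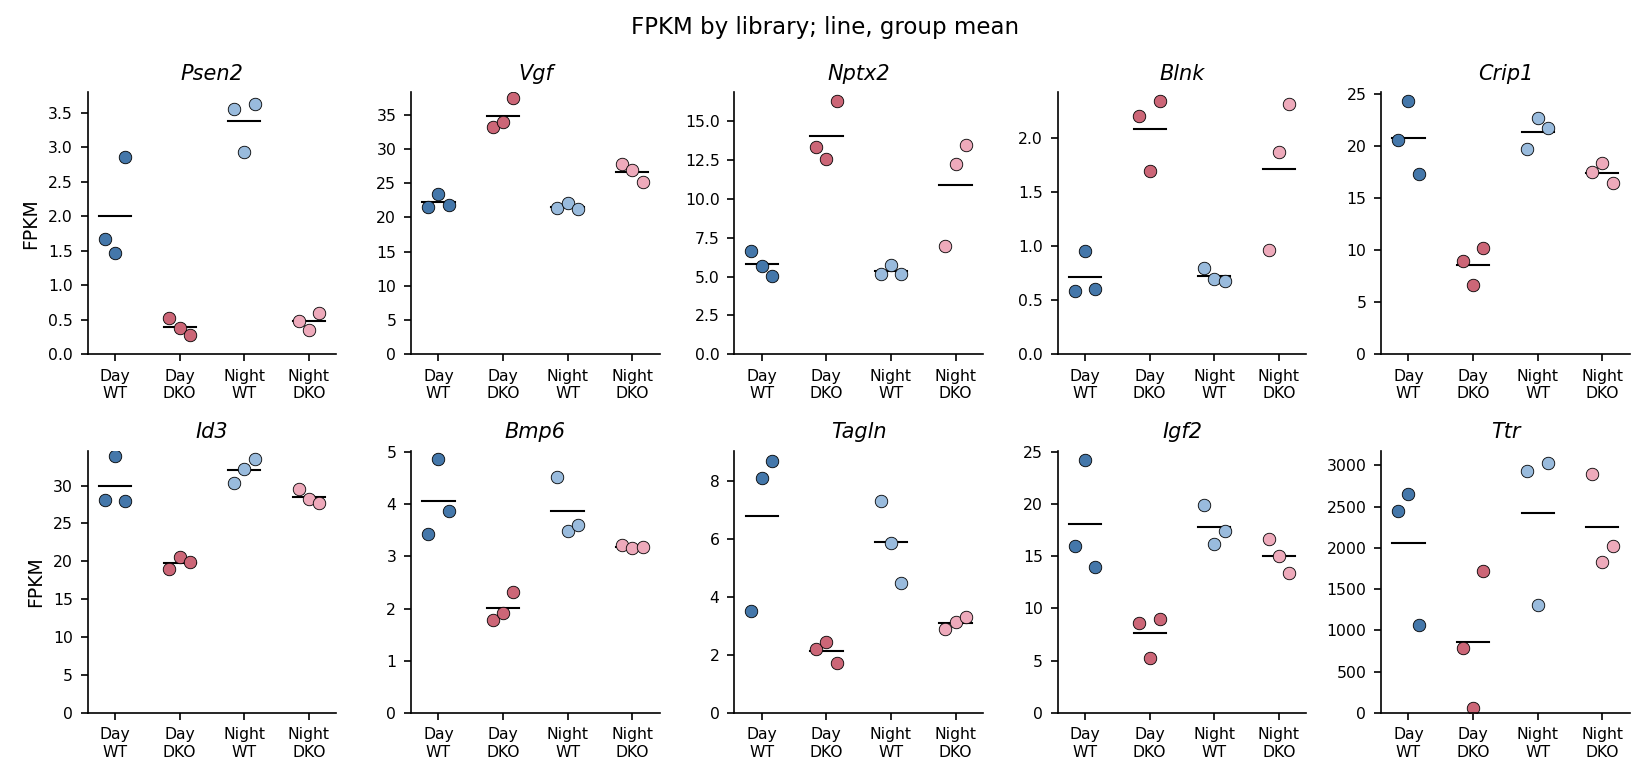
FPKM (y axes, from 0) of 10 genes in each of the 12 libraries by group, with a line at the group mean. The Day DKO and Day WT libraries are apart for all but Ttr, where Day DKO replicate 3 at 1724 FPKM lies among the WT libraries.

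At night 3 genes were called (0.0236% of those tested), Psen2, Dhrs7 and Snapc1, and 1165 had an unadjusted p under 0.05. No gene was called for the difference between the day and night genotype effects (0.0%, limma interaction, smallest adjusted p 0.396), with 1099 genes at an unadjusted p under 0.05. The day and night effects are therefore not shown to differ for any gene. Psen2 differed by -1.57 at night and -1.08 by day, Vgf by 0.29 and 0.62, Nptx2 by 0.85 and 1.15, Tagln by -0.72 and -1.25, and Thrsp by -0.13 and 0.64. Night DKO and Night WT had close choroid plexus levels, at means of 2.84 and 2.88, and smooth muscle levels of 1.81 ± 0.02 and 2.10 ± 0.13 (SD, n = 3).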

How the data were processed

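RNA of the hippocampus was sequenced from stranded libraries of total RNA after removal of ribosomal RNA, per the labels' protocols. Genome build GRCm38.p6 is named in the submitters' processing notes. The sources used here do not give the aligner and quantifier. Each library's table, as deposited by the authors, holds 1 value per gene, read as FPKM from the values: the lowest value above 0 fell with transcript length (Spearman's rho = -0.752 across 272 low genes, which are not independent replicates). The files used here hold no counts, so read depth is not known. From the low values, depth relative to Day WT replicate 1 was 0.904 to 1.061. Date-like symbols of 27 genes were restored from gene IDs, and 21727 IDs matched RefSeq.

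Values were transformed to log2(FPKM + 1), a scale that shrinks the differences of genes near or under 1 FPKM. limma (version 3.58.1, R 4.3.3) was fitted with 4 group means over 12 libraries and an intensity trend, 2-sided, with Benjamini-Hochberg adjustment over 12689 genes and calls at 0.05. Every adjusted p in the text is from limma. Slopes and covariates used the mean log2(FPKM + 1) of 22 choroid plexus genes or 43 vessel genes. The code was tested on simulated data. The labels do not state separate mice, so the p-values reflect only the spread between these samples, which may be technical. The members and lists were chosen with earlier results of these data known. Lists are described by counts and medians. Named genes are Psen2, up to 10 largest rises and 10 largest falls with a mean log2(FPKM + 1) of at least 1, called or lowest-p list members, genes called without each library or with the covariate, the lowest-p slopes and noncoding RNAs; Ttr, Tpm1, Csrp1, Smad7, Igfbp2, Nid2, Il34, Junb and Tmem251 were chosen after their values were seen. Some genes that the rule takes are not reported here. Night-time and other brain genes are given only beside the day values. Alternatives were other pseudocounts, filters, scalings, weights, a replicate block, the day libraries alone and leaving out each library.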

Additional observations from a re-analysis of the deposited data

Results flagged for a closer look

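The Bdnf libraries of DKO and WT were separated in opposite directions by day and, by a very narrow gap, at night. All 3 Day DKO libraries lay above all 3 Day WT libraries, with a log2 difference of 0.39, beside 14.3% of all genes tested. At night the values were 3.74, 3.08 and 4.0795 FPKM in DKO and 4.52, 4.46 and 4.0840 FPKM in WT. The highest Night DKO library and the lowest Night WT library were thus almost equal. The night difference was -0.21 and not called (limma, adjusted p = 0.458). The night difference minus the day difference was -0.60, and the limma interaction did not call it (adjusted p = 0.396).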

How the results depend on the processing

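The count of 150 genes called by day was 151 with a pseudocount of 0.1, 147 with FPKM of at least 1 in 6 libraries, 127 with median-of-ratios scaling, 141 with the length trend removed and 109 with array quality weights. It was 26 with no filter on low values, 96 with quantile normalization, 50 with only the 6 day libraries (37 higher and 13 lower), 4 with the choroid plexus level, 0 with the vessel level and 0 with both levels as covariates. Without each library in turn it ran from 13 to 205. The count of 69 choroid plexus slopes was 5 with Ttr alone as the level, and from 32 (without Day WT replicate 3) to 74 without each library, with 34 without Night WT replicate 2. The interaction count was 0 to 1 without each library, the 1 gene being Timmdc1 (-1.21, limma, adjusted p = 0.000254) without Day WT replicate 3. The vessel slope count was 0 in every alternative run. With both covariates Foxj1 reversed to 0.03 and Fosb to -0.12. Of 47 called genes named, none turned its sign in any alternative, 8 were called in all 21 alternatives without a covariate and 0 in all 24. With the vessel level, and with both levels, the median difference of the 49 lower genes shrank from -0.52 to -0.40 and -0.34. Their median standard error grew from 0.098 to 0.139 and 0.144. For the 101 higher genes the medians were 0.43 and 0.39, beside 0.39 without a covariate, and the median standard errors 0.114 and 0.130, beside 0.074. Why calls were lost was not tested. Same-numbered Day WT and Day DKO libraries did not deviate together (r = 0.115, -0.086 and -0.116 across genes), so the numbers were not taken as pairs for the day comparison, although same-numbered Day DKO and Night WT libraries had r of 0.168, 0.247 and 0.171; a replicate block gave 178 genes (125 higher and 53 lower). Depth is unknown, which limits statements on genes near 0.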

Other observations

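Of 14 genes tested that start between 72 and 74 Mb on chromosome 12, 3 were called lower in DKO by day and none higher. Over all genes tested 0.386% were called lower and 0.796% higher. Between 70 and 90 Mb, 5 of 144 tested genes were called lower and 1 higher. Over the whole of chromosome 12, 6 of 449 tested genes were called lower and 5 higher. The 3 genes were noticed after their values were seen. Dhrs7, a short-chain dehydrogenase (72650353 to 72664828, GRCm38.p6), had 7.66, 8.29 and 9.29 FPKM in Day WT and 5.38, 6.15 and 4.62 FPKM in Day DKO, a log2 difference of -0.56 by day (limma, adjusted p = 0.0230) and -0.75 at night (limma, adjusted p = 0.0140). Slc38a6, an amino acid transporter family gene (73286739 to 73361998), had 0.981, 0.468 and 0.778 FPKM in Day WT and 0.167, 0.210 and 0.184 FPKM in Day DKO, a difference of -0.54 (limma, adjusted p = 0.0232). Snapc1 (73964457 to 73988966) had 3.88, 3.24 and 4.005 FPKM in Day WT and 2.30, 2.48 and 2.40 FPKM in Day DKO, with differences of -0.47 by day and -0.62 at night (limma, adjusted p = 0.00275). Dhrs7 and Snapc1 were, with Psen2, the genes called at night.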
